A study of Mus musculus with 20 samples.

Results

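The BCL2 family decides whether a cell keeps its mitochondria intact or opens them and dies by apoptosis. Its survival members (here Bcl2, Bcl2l1, Bcl2l2 and Mcl1) hold the pore-forming effectors Bax and Bak1 in check. The BH3-only members (here Bcl2l11, Bid, Bad and Bbc3) sense stress, occupy the groove of the survival proteins and thereby set the effectors free. Macrophages grown with the growth factor M-CSF depend on such signals, and the family is controlled at the protein level as well as by transcript abundance, so that mRNA is only 1 layer of it. These 10 genes were picked by symbol in the gene table, with names taken from GENCODE M21. All 10 were among the 14456 genes listed, and all 10 passed the filter on low values.

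RNA was sequenced from cultured bone marrow-derived macrophages (BMDM) of male wild type C57BL/6J mice, differentiated for 6 days in 25 ng/ml M-CSF. The mice were 8 weeks old by the culture methods, while the study elsewhere gives a range that starts at 8 weeks. In the first experiment, BMDM were kept for 24 h in high glucose (25 mM glucose, n = 4 libraries) or in normal glucose balanced for osmolarity (5.5 mM glucose with 19.5 mM mannitol, n = 4). In the second, naive BMDM were cultured for 24 h with PBS (n = 4), with BMDM–NG-exo (n = 4) or with BMDM–HG-exo (n = 4), the exosomes at 2000000000 particles per ml. BMDM–NG-exo and BMDM–HG-exo are the vesicles shed by BMDM in normal and in high glucose, and the question was whether they carry the glucose signal to naive cells. The labels number the glucose libraries and date the exosome libraries. Per the study, the exosome samples came from separate exosome preparations. It does not say whether the naive BMDM that received them came from separate animals or cultures. For the glucose libraries nothing says that they came from separate animals or cultures. In both experiments the p-values thus measure only the spread between these samples. For glucose that spread may be technical.

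The libraries held between 34016445 and 56310712 reads in listed genes. The 8 macrophage markers, among them Adgre1, Csf1r and Cd68, were all listed, while none of the T cell, B cell, dendritic cell, erythroid and mast cell markers were. The summed macrophage markers ran from 632706 to 707063 normalized counts in normal glucose and from 809706 to 879376 in high glucose. Most of that sum was Lyz2 (median 570203), and over the list 3 of 8 markers were called higher and 2 lower in high glucose, with a median log2 difference of 0.01. In the second experiment they lay between 799008 and 844911 after PBS. They lay between 722583 and 779037 after BMDM–NG-exo, and between 739897 and 764333 after BMDM–HG-exo. Of the 8 markers, 4 were called lower and 0 higher with BMDM–NG-exo against PBS (median log2 difference -0.13). With BMDM–HG-exo against PBS, 4 were also called lower and 0 higher (median -0.15). Against PBS and BMDM–NG-exo joined, 2 were called lower and 0 higher with BMDM–HG-exo. Neutrophil markers (3 of 6 listed) summed to between 65.2 and 145 normalized counts and fibroblast markers (2 of 4 listed) to between 68.4 and 229. In bulk RNA, fewer cells of a type and less RNA per cell cannot be told apart.

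Promoter sequences are shown for the 5 members that passed the test in any comparison, since they are the stretches on which a shared input would act. RefSeq start sites on GRCm38.p6 gave 16 windows for the 10 members. Each window printed here spans the 250 bases before a start, 5′ to 3′ on the strand of the gene, and none of them touched an exon of GENCODE M21. Capitals mark any of 5 short motifs on either strand: the GC box GGGCGG, the CCAAT box, the TATA box TATAAA, the forkhead core GTAAACA and the E-box CACGTG. None of these motifs contains another.
Bcl2, chr1:106714291-106714540, minus strand: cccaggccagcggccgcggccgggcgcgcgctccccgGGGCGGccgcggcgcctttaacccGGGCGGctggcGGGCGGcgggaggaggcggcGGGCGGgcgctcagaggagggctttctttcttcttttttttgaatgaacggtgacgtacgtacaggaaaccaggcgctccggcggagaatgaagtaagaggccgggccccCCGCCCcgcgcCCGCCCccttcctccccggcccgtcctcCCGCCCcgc
Mcl1, chr3:95658471-95658720, plus strand: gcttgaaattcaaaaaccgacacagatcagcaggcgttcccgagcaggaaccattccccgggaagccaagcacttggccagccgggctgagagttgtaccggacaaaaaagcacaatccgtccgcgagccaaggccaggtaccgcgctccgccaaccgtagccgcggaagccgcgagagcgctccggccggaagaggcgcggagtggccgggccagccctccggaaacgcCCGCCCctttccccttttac
Bax, chr7:45466899-45467148, minus strand: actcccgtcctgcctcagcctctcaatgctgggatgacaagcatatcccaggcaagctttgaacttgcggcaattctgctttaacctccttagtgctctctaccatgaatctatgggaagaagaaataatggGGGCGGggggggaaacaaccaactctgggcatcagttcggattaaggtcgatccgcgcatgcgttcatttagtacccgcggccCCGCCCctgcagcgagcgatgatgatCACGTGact
Bcl2l11, the upstream of 2 windows, chr2:128125788-128126037, plus strand: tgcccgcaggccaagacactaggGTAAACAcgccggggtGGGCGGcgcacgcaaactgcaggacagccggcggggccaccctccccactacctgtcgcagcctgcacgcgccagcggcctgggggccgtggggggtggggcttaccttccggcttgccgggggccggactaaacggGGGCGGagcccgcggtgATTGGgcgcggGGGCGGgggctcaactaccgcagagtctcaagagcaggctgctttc
Bbc3, the middle of 3 windows, between exons and shown for its forkhead core, chr7:16310011-16310260, plus strand: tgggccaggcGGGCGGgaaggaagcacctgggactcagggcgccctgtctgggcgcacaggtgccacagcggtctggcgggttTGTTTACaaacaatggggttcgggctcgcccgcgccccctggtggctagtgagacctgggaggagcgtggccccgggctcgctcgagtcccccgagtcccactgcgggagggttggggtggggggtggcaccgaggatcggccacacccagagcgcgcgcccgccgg
Of the windows printed, that of Bcl2 held 7 GC boxes, that of Bcl2l11 3, that of Bax 2 and those of Mcl1 and Bbc3 1 each. The other 2 windows of Bbc3 held 5 and 7. The forkhead core, the letters read by FOXO transcription factors, stood once in the Bcl2l11 window and once, on the other strand, in the Bbc3 window, and in no other of the 16 windows. It was held by 3.17% of the 32851 mouse promoter windows of this length, against 32.7% for the GC box, 33.8% for CCAAT, 12.4% for TATAAA and 6.02% for the E-box. The E-box stood in the Bax window and in another window of Bbc3, and TATAAA stood in none of the 16. The Bcl2 window was 74.8% G and C with 36 CpG, where the median over all windows was 52.4% and 6, and the third window of Bbc3 was 81.6% with 37 CpG. A match is a run of letters and not a measured binding site, and its part in the level of a gene was not tested.

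Scaled to exon length, Mcl1 towered over the rest of the family. Mcl1, which encodes a short-lived survival protein, stood at 8844 ± 439 normalized counts per kb (SD, n = 20 libraries), above 99.3% of the listed genes. The effectors Bax and Bak1 followed at 1093 ± 120 and 782 ± 41.9 per kb. Bcl2l11, which encodes BIM, stood at 682 ± 33.0 per kb, and Bcl2l1, which encodes BCL-XL, at 573 ± 35.9. Each of these was above the next in all 20 libraries. Bbc3, which encodes PUMA, stood at 365 ± 57.5 per kb and Bid, which caspase-8 cleaves, at 301 ± 20.8. Bad, whose product is held inactive by survival kinases, stood at 279 ± 31.1. These 3 BH3-only genes lay close together: Bbc3 was above Bid in 17 libraries, and Bid above Bad in 15. Bcl2l2, which encodes BCL-W, stood at 170 ± 10.8 per kb in 9th place. Bcl2 itself was the lowest member at 27.8 ± 5.02 per kb, with between 148 and 378 reads per library, above 19.7% of the listed genes.

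**Figure D1:**
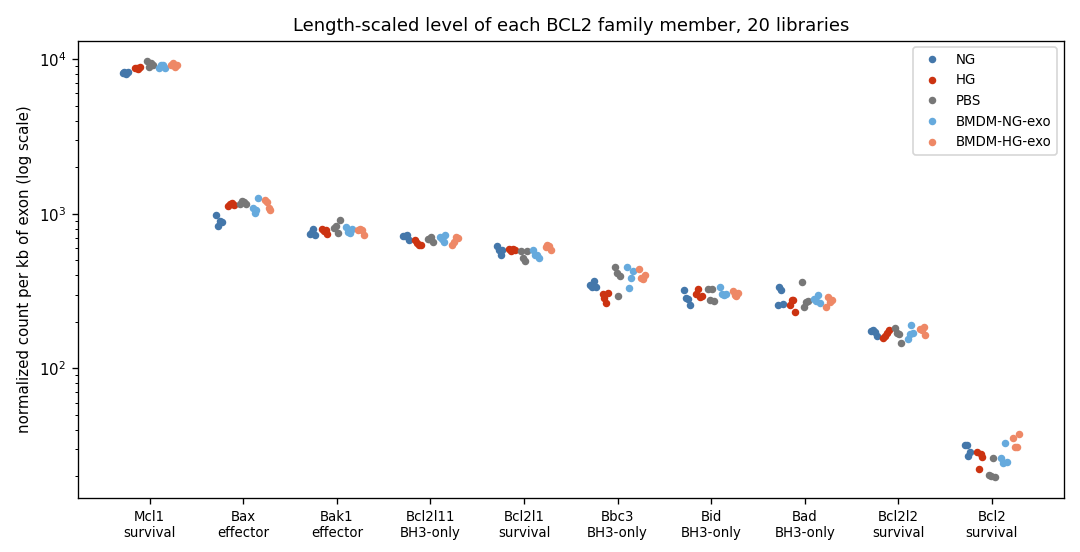
Normalized count per kb of merged exons (log scale) for the 10 BCL2 family members, in order of their mean level, with 1 point per library and colours for the 5 groups. Mcl1 sits at the top in all 20 libraries and Bcl2 at the bottom, between 19.7 and 37.8 per kb.

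In every library the length-scaled levels of the family added up to a similar split between roles. Survival members took between 71.5% and 74.4% of the sum, effectors between 13% and 15.5%, and BH3-only members between 11.2% and 13.9%. Mcl1 alone made up between 65.9% and 68.9%. The ratio of the summed survival members to the summed effectors and BH3-only members was 2.72 ± 0.120 in normal glucose and 2.78 ± 0.0779 in high glucose (SD, n = 4). It was 2.73 ± 0.0901 with PBS, 2.71 ± 0.205 with BMDM–NG-exo and 2.79 ± 0.0647 with BMDM–HG-exo. The 5 groups overlapped in this ratio. Mcl1 made up between 90.8% and 93.2% of the survival sum.

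High glucose moved 4 of the 10 members past the threshold: Mcl1 and Bax were higher, and Bcl2l11 and Bbc3 were lower. Each role thus had 1 or more members on the list, and the survival gene and the effector gene that changed rose together while the 2 BH3-only genes fell. Over all genes tested, 13.3% were called in this comparison (7.74% higher and 5.53% lower, at a limma adjusted p under 0.05 with no limit on the fold). The unadjusted p was under 0.05 for the same 4 members, against 25.4% of all genes. The edgeR quasi-likelihood test and DESeq2 on the recovered reads each called these 4 as well.

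Among the survival genes, Mcl1 was measured with the least spread. The normal glucose libraries held 27740, 28113, 27528 and 28177 normalized counts, and the high glucose libraries 29923, 29763, 29390 and 30398. All 4 high glucose libraries lay above all 4 normal glucose libraries. Mcl1 rose by 0.10 on the log2 scale (SE 0.031, limma Benjamini-Hochberg adjusted p = 0.0279), a small step set against a spread of 1.11% to 1.40% (coefficient of variation) within the groups. With quantile normalization the difference was 0.04 and no longer called (limma adjusted p = 0.366; range over 17 alternatives 0.00373 to 0.366). Bcl2 stood at 275 ± 21.4 in normal glucose and 242 ± 26.6 in high glucose, a log2 difference of -0.19 with a 95% interval from -0.46 to 0.08. For Bcl2l1 and Bcl2l2 the log2 differences were 0.01 (interval -0.09 to 0.11) and -0.04 (interval -0.20 to 0.12), and the groups overlapped in all 3 genes.

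Of the effectors, Bax had the largest change of any member under glucose. Its protein travels from the cytosol to the mitochondrial outer membrane when cells are stressed. The normal glucose libraries held 1547, 1311, 1414 and 1386 normalized counts and the high glucose libraries 1776, 1825, 1851 and 1789. The groups did not overlap, and the high glucose libraries lay closer together (SD 34.3, against 98.3). Bax rose by 0.36 on the log2 scale (SE 0.059, limma adjusted p = 2.87e-05) and was called under all 17 alternatives. Bak1, the effector that already sits in the mitochondrial membrane, stood at 1823 ± 70.1 and 1857 ± 56.3, a log2 difference of 0.03 (interval -0.08 to 0.14). The ratio of Bax to Bak1 per kb ran from 1.09 to 1.34 in normal glucose and from 1.43 to 1.54 in high glucose.

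**Figure D2:**
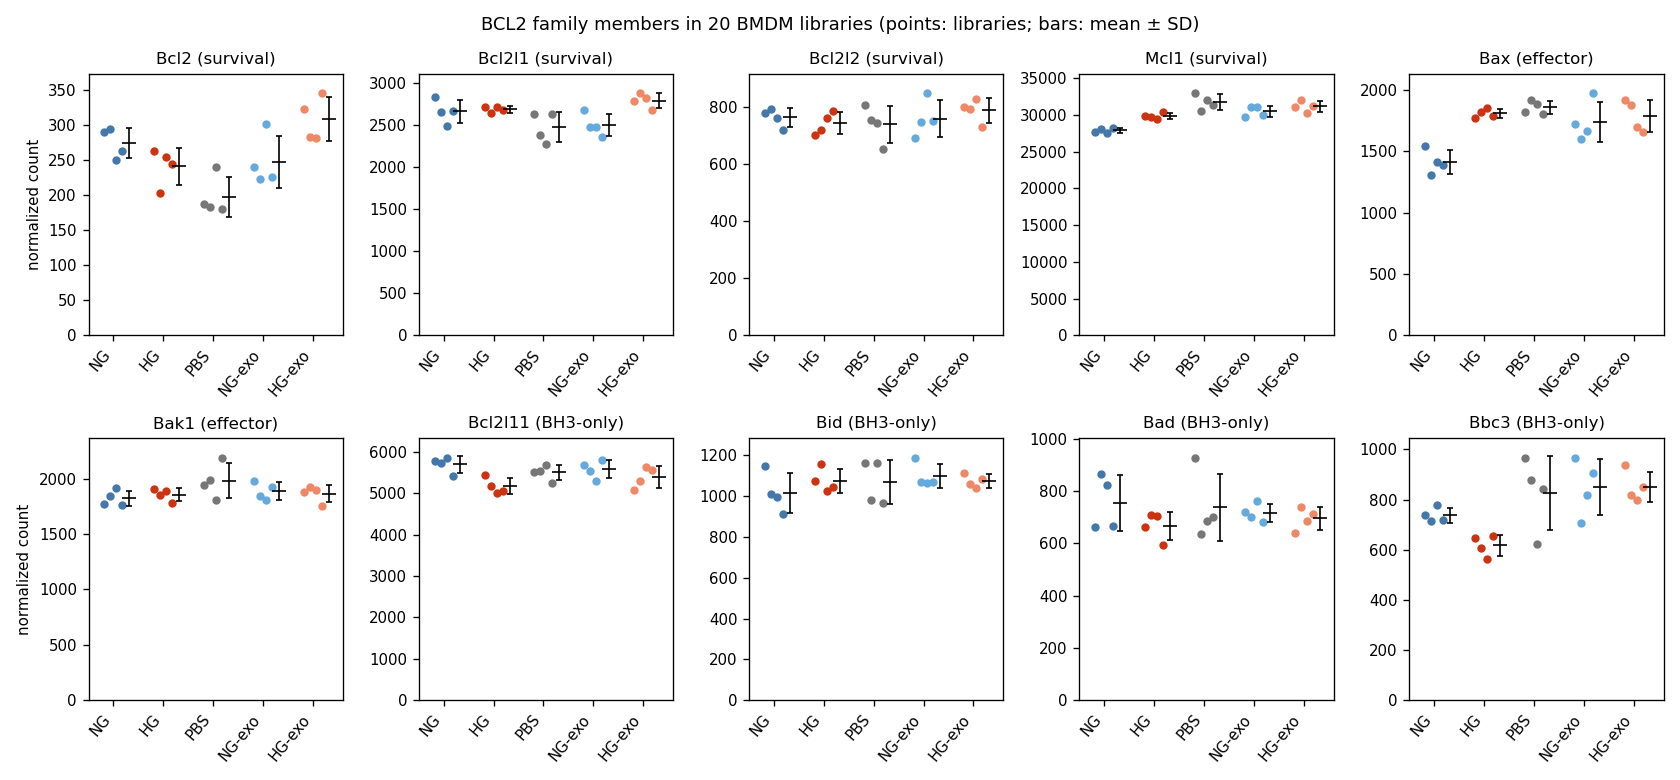
Normalized count of each of the 10 members (linear axes from 0) in the 5 groups, with 1 point per library and bars for mean ± SD (n = 4). Bax in normal glucose lies between 1311 and 1547, below all high glucose libraries, and Bcl2 is lowest with PBS and highest with BMDM–HG-exo.

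The BH3-only genes Bcl2l11 and Bbc3 were lower in high glucose. Bcl2l11 stood at 5791, 5730, 5859 and 5412 normalized counts in normal glucose and at 5444, 5178, 5014 and 5051 in high glucose. High glucose replicate 1, at 5444, lay just above normal glucose replicate 6, and the other 3 high glucose libraries lay below every normal glucose library. Bcl2l11 fell by 0.14 on the log2 scale (SE 0.041, limma adjusted p = 0.0195). Bbc3, a classical target of both p53 and FOXO factors, stood at 737, 715, 778 and 718 in normal glucose and at 645, 608, 562 and 653 in high glucose. Its groups did not overlap, and it fell by 0.26 on the log2 scale (SE 0.082, limma adjusted p = 0.0308). Bid (1017 ± 96.9 and 1076 ± 58.3) and Bad (754 ± 105 and 667 ± 53.9) overlapped between the groups, with log2 differences of 0.08 (interval -0.06 to 0.23) and -0.17 (interval -0.35 to 0.02). Non-overlapping groups were thus found for 3 members, Mcl1, Bax and Bbc3, against 16.3% of all genes.

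The calls of Mcl1, Bcl2l11 and Bbc3 lay near the threshold. Without a mean trend in the variance, Bax was the only member called, and the limma adjusted p was 0.16 for Mcl1, 0.142 for Bcl2l11 and 0.0602 for Bbc3. Without normal glucose replicate 5, Bax was again the only member called. Leaving out high glucose replicate 2, 4 or 6 left 2 members called each time, and leaving out high glucose replicate 1 ended the call of Mcl1 (limma adjusted p = 0.0595). The log2 differences of Mcl1 and Bcl2l11 were below the limit of 0.15 used in the exosome experiment.

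Some ratios between roles within each library differed with glucose, as a description without a test. The summed survival members stood at 5.18 to 5.89 times the summed BH3-only members per kb in normal glucose and at 6.17 to 6.62 times in high glucose. The summed effectors stood at 0.955 to 1.05 times the BH3-only members in normal glucose and at 1.24 to 1.35 times in high glucose. The ratio of Bax to Bcl2 per kb ran from 25.9 to 32.8 in normal glucose and from 39.1 to 52.1 in high glucose. The ratio of Mcl1 to Bcl2l11 ran from 11.0 to 12.2 and from 12.9 to 14.1. None of these 4 ratios overlapped between the glucose groups. They reuse the members already called above, and they also hold members that were not called, Bcl2, Bid and Bad among them. Survival over all death members did overlap, at 2.59 to 2.87 in normal glucose and 2.73 to 2.90 in high glucose. Bmf, a BH3-only gene outside the members, was called higher in high glucose and is not part of these sums. The summed macrophage markers, mostly Lyz2, also separated the glucose groups, while the marker list as a whole went both ways (3 called higher and 2 lower). The part of the markers in the ratios was not tested.

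**Figure D3:**
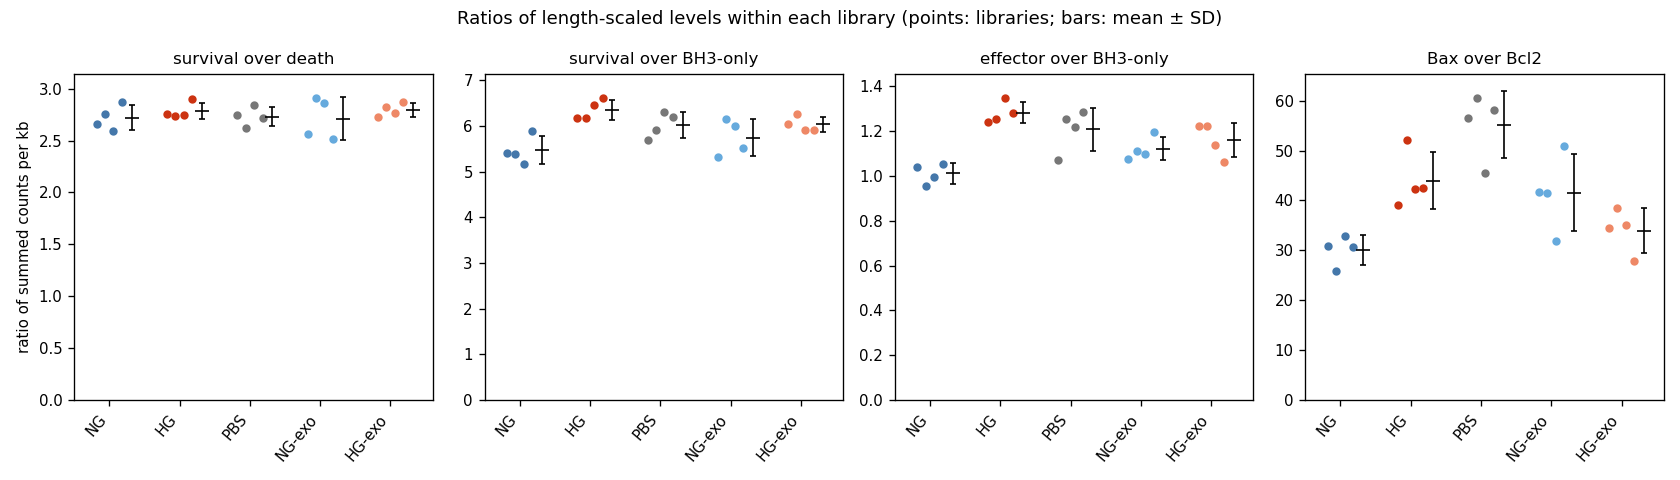
Ratios of summed normalized counts per kb within each library for survival over death members (effectors plus BH3-only), survival over BH3-only, effectors over BH3-only, and Bax over Bcl2, with 1 point per library and bars for mean ± SD (n = 4, axes from 0). Survival over death stays between 2.51 and 2.91 in all libraries, while the other 3 ratios separate high from normal glucose.

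In the exosome experiment 1 member was called, the survival gene Bcl2, and only between BMDM–HG-exo and PBS. Bcl2 was not called under glucose, but the difference between the experiments was not tested. The protein BCL2 is the founding survival member, anchored in the outer mitochondrial membrane. The PBS libraries held 187, 184, 241 and 181 normalized counts of Bcl2, and the BMDM–NG-exo libraries 240, 224, 303 and 226. The BMDM–HG-exo libraries held 324, 284, 283 and 346. All 4 BMDM–HG-exo libraries lay above all 4 PBS libraries, and BMDM–NG-exo lay between them and overlapped both, its replicate 3 being the highest of its group as PBS replicate 3 was of its own.

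Against PBS, Bcl2 rose by 0.64 on the log2 scale with BMDM–HG-exo (SE 0.144, limma adjusted p = 0.00321). It was the only member called of 10 in this comparison, in which 4.84% of all genes were called (adjusted p under 0.05 with a log2 change of 0.15 or more in size). Bcl2 was called under all 22 alternatives, with log2 fold changes between 0.59 and 0.74. The 4 label dates, each with 1 library per group, gave ratios of BMDM–HG-exo to PBS between 1.18 and 1.92, above 1 on all 4 dates. The PBS libraries were the shallower ones, at 34016445 to 44693640 reads against 42356003 to 45905440 with BMDM–HG-exo, and the part of depth was not tested. Of the 3 endothelial markers, Vwf and Kdr were listed and Cdh5 was not. Of these 2, 1 was called higher in this comparison and the other had a log2 difference below 0. Their sum, mostly Vwf (median 6761 normalized counts, against 320 for Kdr), ran from 6589 to 7132 with PBS and from 8326 to 9531 with BMDM–HG-exo. Of the 8 macrophage markers, 4 were called lower and 0 higher in this comparison. The part of the endothelial and macrophage markers in the result was not tested.

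Bcl2l1 did not pass the test but lay close to the threshold between BMDM–HG-exo and PBS. The PBS libraries held 2629, 2377, 2280 and 2639 normalized counts, the BMDM–NG-exo libraries 2685, 2484, 2476 and 2360, and the BMDM–HG-exo libraries 2785, 2883, 2823 and 2677. BMDM–HG-exo lay above PBS in all 4 libraries, without overlap. The log2 difference from PBS was 0.17 (SE 0.054, limma adjusted p = 0.0543). With the label dates as a block, the limma adjusted p was 0.0353 and Bcl2l1 was called (range over 22 alternatives 0.0331 to 0.195). Non-overlapping groups were found for Bcl2 and Bcl2l1 out of 10 members, against 10% of all genes, and these 2 also had an unadjusted p under 0.05, against 16.9%. Transcripts for the long and the short form of BCL-X, which act in opposite ways, share this gene count and were not told apart.

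**Figure D4:**
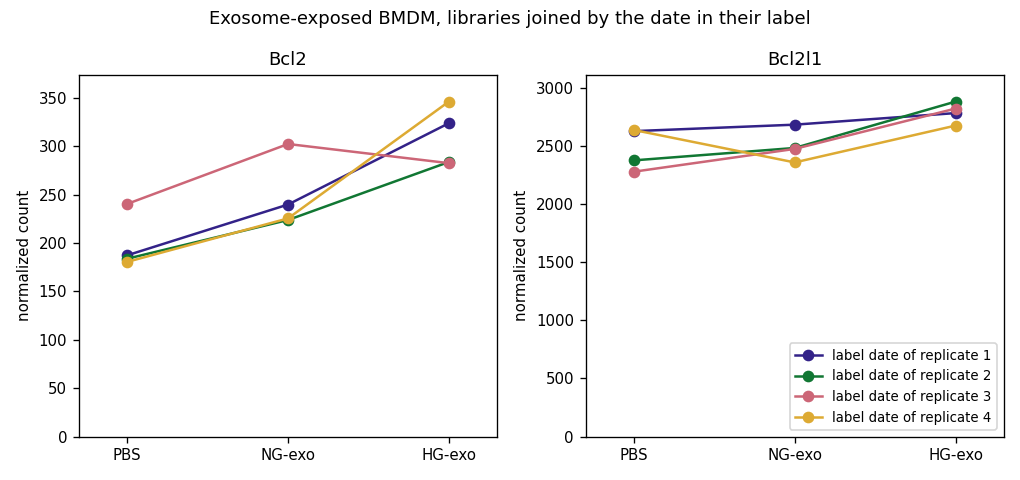
Normalized counts of Bcl2 and Bcl2l1 (linear axes from 0) in naive BMDM of the 3 exosome groups, with lines joining the 3 libraries of 1 label date. Bcl2 climbs from PBS to BMDM–NG-exo on all 4 dates and from BMDM–NG-exo to BMDM–HG-exo on 3 of 4, and Bcl2l1 is highest with BMDM–HG-exo on all 4.

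The step from BMDM–NG-exo to BMDM–HG-exo, which addresses the glucose history of the donor cells, had 0 members called by limma, edgeR or DESeq2, against 0.0139% of all genes for limma. At an unadjusted p under 0.05 there were 2, Bcl2 and Bcl2l1, against 6.54% of all genes. The log2 difference was 0.32 for Bcl2 (interval 0.03 to 0.62, limma adjusted p = 0.706) and 0.16 for Bcl2l1 (interval 0.05 to 0.27, limma adjusted p = 0.573). On the label dates, the ratio of BMDM–HG-exo to BMDM–NG-exo ran from 0.935 to 1.54 for Bcl2 and from 1.04 to 1.16 for Bcl2l1. No member had groups without overlap, against 3.86% of all genes. For the other 8 members the log2 differences lay between -0.05 and 0.05, and the widest interval, that of Bbc3, ran from -0.20 to 0.22.

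The step from PBS to BMDM–NG-exo also had 0 members called by limma, edgeR or DESeq2, against 3% of all genes for limma. Bcl2 was the 1 member with an unadjusted p under 0.05, against 13.5% of all genes, with a log2 difference of 0.32 (interval 0.03 to 0.61, limma adjusted p = 0.304). Its ratio of BMDM–NG-exo to PBS was close on the 4 label dates, from 1.22 to 1.28. No member was without overlap, against 8.27% of all genes. Mcl1 stood at 31740 ± 1053 with PBS and 30477 ± 740 with BMDM–NG-exo (log2 difference -0.06, interval -0.12 to 0.00), and Bax at 1859 ± 51.8 and 1741 ± 165 (log2 difference -0.10, interval -0.23 to 0.03). The 3 pairwise comparisons share samples and are not independent of one another.

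With both control groups joined, BMDM–HG-exo had 0 members called by limma and by edgeR and 1, Bcl2, by DESeq2, against 0.201% of all genes for limma. Bcl2 and Bcl2l1 had an unadjusted p under 0.05, against 10.5% of all genes, with log2 differences of 0.48 (SE 0.133, limma adjusted p = 0.109) and 0.17 (SE 0.048, limma adjusted p = 0.134). DESeq2 gave Bcl2 an adjusted p of 0.0461, and without BMDM–NG-exo replicate 3 limma gave 0.0214 at a log2 difference of 0.55 (range over 22 alternatives 0.0214 to 0.379). No member was without overlap, against 1.17% of all genes, since BMDM–NG-exo replicate 3 (303) exceeded 2 of the BMDM–HG-exo libraries for Bcl2. The median log2 difference of the 4 survival genes was 0.12, against 0.00 over all genes. It was -0.03 for the effectors and -0.03 for the BH3-only members. Mcl1, the most abundant survival gene, had a log2 difference of 0.004 (interval -0.06 to 0.07).

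**Figure D5:**
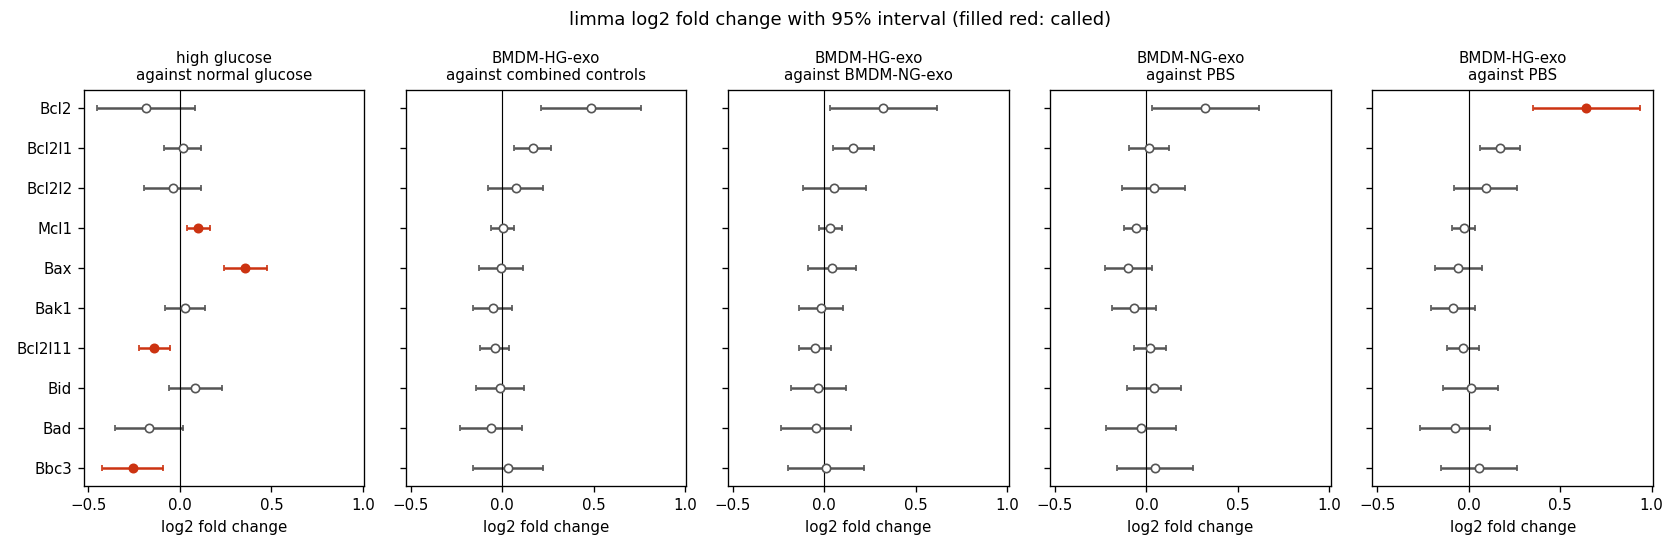
limma log2 fold change (horizontal axis) with 95% interval for each of the 10 members in the 5 comparisons, filled red where called. Mcl1, Bax, Bcl2l11 and Bbc3 are filled under high glucose, and Bcl2 is the only filled point in the exosome comparisons, against PBS.

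The effector and BH3-only members were not called in any exosome comparison. Bmf, a BH3-only gene outside the members, was called lower with BMDM–NG-exo and with BMDM–HG-exo against PBS. It is not part of the sums below. Against PBS, the log2 differences with BMDM–HG-exo were -0.06 for Bax, -0.09 for Bak1, -0.03 for Bcl2l11, 0.01 for Bid, -0.07 for Bad and 0.06 for Bbc3, with intervals reaching from -0.26 to 0.26. Bbc3 was the least even of these, with a coefficient of variation of 17.7% with PBS, where replicate 3 held 622 normalized counts and the others 841 to 966. Mcl1 stood at 31175 ± 737 with BMDM–HG-exo, a log2 difference from PBS of -0.03 (interval -0.09 to 0.04). The 3 survival genes other than Mcl1, summed per kb, stood at 0.193 to 0.204 times the death members in the PBS libraries. After BMDM–NG-exo they stood at 0.188 to 0.221 times. With BMDM–HG-exo they stood at 0.226 to 0.237 times, above every library of the other 2 groups. The ratio of Bax to Bcl2 per kb ran from 45.6 to 60.6 with PBS and from 27.8 to 38.5 with BMDM–HG-exo, and BMDM–NG-exo, at 31.9 to 50.9, overlapped both. These ratios are descriptions without a test. The sum of the 3 survival genes was mostly Bcl2l1, which limma did not call. Bcl2l1 stood at 541 per kb with PBS and 609 with BMDM–HG-exo, against 21.6 and 33.8 for Bcl2 and 166 and 177 for Bcl2l2. The ratio of Bax to Bcl2 rests mostly on Bcl2.

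Across all 5 groups, the order of mean levels differed by gene. Bcl2 was lowest with PBS and highest with BMDM–HG-exo, at 1.56 times, and each neighbouring pair in that order overlapped. Mcl1 and Bax were lowest in normal glucose and highest with PBS, at 1.14 and 1.31 times, and normal glucose was apart from its nearest neighbour in both. Bbc3 was lowest in high glucose and highest with BMDM–HG-exo, at 1.38 times, and high glucose did not overlap with normal glucose, its neighbour. For Bcl2l2, Bak1, Bcl2l11, Bid and Bad the lowest and the highest group overlapped, with ratios of means between 1.07 and 1.13. The glucose and the exosome libraries came from different experiments, so a difference between them cannot be told apart from the experiment.

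After the group means were taken out, the members' deviations over the 20 libraries were loosely related, with Pearson r between -0.56 (Bcl2 and Bak1) and 0.44 (Bak1 and Bbc3). They share the library scaling and are given as a description. The genes whose profile over the 20 libraries was most like that of a member, among 11717 genes with a mean of at least 50, were read off in the same way. For Bcl2 they included Gm45493 (r = 0.78) and Scaf8 (0.78), and for Mcl1 they were Rnf149 (0.91), Angptl4 (0.89) and the pseudogene Gm6136 (0.89). For Bax they were Kcnk13 (0.92), Prkcd (0.92) and Tnfaip2 (0.91). For Bcl2l11 they were Slc16a6 (0.82), Hnrnpul1 (0.81) and Ptafr (0.79), and for Bbc3 they included Cebpa (0.91).

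Other genes of the apoptosis machinery were counted by list, against the 13.3% of all genes called under high glucose. Of 9 other BCL2 family genes measured, 1 was called under high glucose, Bmf, a BH3-only gene tied to the cytoskeleton, a share near that of all genes (13.3%). Bmf rose by 0.24 on the log2 scale (1439 ± 66.8 to 1704 ± 94.0, limma adjusted p = 0.00398), against the fall of Bcl2l11 and Bbc3 in the same libraries. It was lower with BMDM–NG-exo than with PBS by 0.31 (limma adjusted p = 0.00561) and lower with BMDM–HG-exo than with PBS by 0.32 (limma adjusted p = 0.00332). It was the 1 gene of the list called in each of these comparisons.

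Of 9 genes on the inhibitor of apoptosis list, 3 were called under high glucose, against 13.3% of all genes. Birc3 rose by 0.14, Birc5, which encodes survivin and follows cell division, fell by 0.56, and Naip6 fell by 0.17, though reads of the near-identical Naip genes may be shared. Birc3 was also lower with BMDM–NG-exo (log2 fold change -0.24) and with BMDM–HG-exo (-0.34, limma adjusted p = 5.9e-06) than with PBS. Of 9 death receptor pathway genes, 1 was called under high glucose, near the 13.3% of all genes. Tnfsf10, which encodes the death ligand TRAIL, rose by 0.80 (114 ± 23.6 to 196 ± 19.1 normalized counts, limma adjusted p = 0.00178). With BMDM–HG-exo, Tnfsf10 fell by 0.96 against PBS (70.9 ± 20.7 against 135 ± 19.4, limma adjusted p = 0.0128). With BMDM–NG-exo it stood at 77.8 ± 16.4, also without overlap with PBS (log2 difference -0.80, limma adjusted p = 0.0681). Of 17 caspase and apoptosome genes, 1 was called under high glucose, the mitochondrial channel gene Vdac3 (log2 fold change 0.18), below the 13.3% of all genes. None was called by limma in the exosome comparisons, where between 0.0139% and 4.84% of all genes were, and 1 or 2 had an unadjusted p under 0.05 in each.

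Regulators known to act on the members were examined as well. Of 12 regulators of BH3-only genes and their kinases, 3 were called under high glucose, against 13.3% of all genes. Foxo3, a forkhead factor known to activate Bcl2l11 and Bbc3, fell by 0.23 (9038 ± 289 to 7717 ± 265, no overlap, limma adjusted p = 3.62e-05). Its part in the levels of Bcl2l11 and Bbc3 was not tested. Akt1, a survival kinase that acts on FOXO factors and on BAD, rose by 0.12, and Atf4 rose by 0.14. Of 13 genes of the p53 module, 3 were called under high glucose, against 13.3% of all genes: Sesn1 and Cdkn1a fell by 0.27 and 0.15, and Mdm2, whose product degrades p53, rose by 0.13. Trp53 itself stood at 1352 ± 42.6 and 1471 ± 57.5 (log2 difference 0.12, limma adjusted p = 0.19). In the exosome comparisons, Fbxw7, part of the ubiquitin ligase that targets MCL1, was the 1 regulator called. It was 0.19 higher with BMDM–HG-exo than with PBS (limma adjusted p = 0.0292), where 4.84% of all genes were called. The p53 module had no call in the exosome comparisons. The 6 lists had no call by limma between BMDM–HG-exo and either BMDM–NG-exo or the joined controls. The median log2 fold change under high glucose was between -0.07 and 0.20 over these lists, against 0.00 over all genes.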

How the data were processed

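The 20 long RNA libraries of BMDM were used. The authors trimmed the reads, mapped them with STAR to GRCm38, counted them per gene with featureCounts (read 2 as sense) and divided the counts by DESeq2 median-ratio size factors, so the deposited signal is a normalized count. Bid, Bad and Bak1 overlap listed genes on the other strand, and Bax and Bcl2l2 overlap genes on their own strand that are not listed. Division by the value of 1 read in each column gave whole reads back, to within 0.01 for 100% of values. In 2 columns (PBS replicate 4 and BMDM–HG-exo replicate 1) the step is close to 1, at 0.992 and 1.006. Normalized counts and reads are nearly the same there. No 2 libraries of a group were copies (chi-square per degree of freedom 5.23 to 42.3 over 30 pairs). The number of reads sets the counting error, which is not the spread between libraries.

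The main test was limma (version 3.58.1, R version 4.3.3; lmFit, eBayes with trend, two-sided) on log2(normalized count + 1). Genes below a mean of 10 were left out, and p-values were adjusted after Benjamini and Hochberg across every gene tested. The 8 glucose and 12 exosome libraries were fitted apart. Calls needed an adjusted p under 0.05, to which the exosome comparisons added a log2 change of 0.15 or more in size. Such fold changes slightly understate those of low genes. The fit was tested on simulated data. Alternatives were edgeR 4.0.16, DESeq2 1.42.0, other pseudocounts, filters and scalings, no trend, no fold limit, each library left out, and the label number or date as a replicate block. The dates tie 1 library of each exosome group to the others; deviations from the group means correlated at a mean r of 0.012 (-0.0178 to 0.0556) over the 12 pairs of equal date.

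Named genes were the 10 members, up to 4 called genes of each of 6 pathway lists with the smallest p under glucose (up to 2 in each exosome comparison), and the 3 genes most correlated with each called member. Trp53 was added after its values were seen. Some of the correlated genes are not reported here. Members and lists were chosen with earlier results of these data known. Levels between genes are per kb of merged exons of GENCODE M21, which named 14421 of 14456 genes. Promoters came from RefSeq (all 10 members matched). Protein sequences were not used here. Python 3.11.15 served for the tables and plots.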

Additional observations from a re-analysis of the deposited data

Results flagged for a closer look

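Within each group of 4 libraries, the highest and the lowest value of each member were checked for a wide gap to the others, in 50 sets of a gene and a group. A gap this wide arises by chance in about 1 of 20 such sets. In 2 sets a library stood apart. Bcl2 in PBS replicate 3 held 241 normalized counts, where the other PBS libraries held 181 to 187, and the gap was 0.886 of the range. Without that library, the log2 difference of Bcl2 between BMDM–HG-exo and PBS was 0.74 (limma adjusted p = 0.00122; range over 22 alternatives 0.000341 to 0.0292). Bid in BMDM–NG-exo replicate 1 held 1189 normalized counts, where the others held 1065 to 1071, and the gap was 0.947 of the range. Bid was called in no comparison with or without it.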

How the results depend on the processing

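Of 1050 fold changes of members under alternatives, none changed direction with a call, 17 lost a call and 11 gained one. Under high glucose, the count of members called fell from 4 to 1 without the trend and to 1 with the replicate block on the label numbers, Bax both times, and ran from 1 to 4 with 1 library left out. The glucose libraries share numbers 1 and 6 only (r 0.0156 and -0.00138 in the 2 pairs), which is no pairing. Between BMDM–HG-exo and PBS the count rose from 1 to 2 with a pseudocount of 8, a mean of at least 50, quantile normalization, DESeq2 or the replicate block on dates, and ran from 1 to 2 with 1 library left out. Bcl2l1 was gained without PBS replicate 1 or 4, BMDM–NG-exo replicate 1 or BMDM–HG-exo replicate 4. Against the joined controls it rose from 0 to 1 with DESeq2, and ran from 0 to 1 with 1 library left out. The block changed no other call of a member. Over all genes, the calls in the order of the report (high glucose, joined controls, BMDM–HG-exo against BMDM–NG-exo, BMDM–NG-exo against PBS, BMDM–HG-exo against PBS) were 1914, 29, 2, 432 and 698, against 654, 1, 1, 95 and 295 without the trend, 788, 23, 22, 505 and 810 with the block, and 2144, 127, 22, 512 and 830 with DESeq2. For the joined controls they were 50 with a pseudocount of 8 and 19 after quantile normalization, and for BMDM–HG-exo against BMDM–NG-exo 5 with a pseudocount of 8, a mean of at least 50 or TMM factors and 1 with edgeR. The cause was not tested. With 4 libraries a group, the 148 to 378 reads of Bcl2 gave the widest intervals of the family.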
